A study of Mus musculus with 6 samples.

Results

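The genes described here are 10 surface, secreted and marker genes of resting, or homeostatic, microglia: Tmem119, Olfml3, Fcrls, Slc2a5, Aif1, Adgre1, Gpr84, Cd68, Crybb1 and Ptprc. They were taken as every probe set of a single-colour oligonucleotide array whose platform annotation gives exactly 1 gene symbol and that symbol is in this list. The rule found 11 probe sets of 45101, 1 for each of 9 genes and 2 for Ptprc, out of 18193 genes named in this way. Total RNA from primary cultures of mouse microglia was put on 6 arrays, and the sample on each array is called 1 culture here. The cultures were 3 Dap12-deficient (Dap12-ko) and 3 wild-type (wt), and the series compares them to ask how microglia differ without this adaptor. Age, strain, treatment, the kind of Dap12 allele and the number of animals per culture are not given in the labels, so a p-value here covers the spread among 3 cultures per group, which may be technical. The titles of Dap12-deficient arrays 1 and 2 and of wild-type arrays 1 and 3 carry 2 numbers each, and those of Dap12-deficient array 3 and wild-type array 2 carry 1 number. What these numbers stand for is not stated, and whether an array holds RNA of 1 culture or of several is not known here.

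Microglia are macrophages that settle in the brain during development. In the undisturbed brain they express a set of genes that separates them from other macrophages and from blood monocytes, and much of this set is turned down when they are cultured, inflamed or close to damaged tissue. Tmem119, Fcrls, Olfml3, Slc2a5 and Crybb1 belong to that set in mice, whereas Aif1, Adgre1, Cd68 and Ptprc are shared with other macrophages or leukocytes, and Gpr84 is known for its induction in activated microglia. Dap12, a membrane adaptor encoded by Tyrobp, carries an ITAM motif that recruits the kinase Syk for receptors such as Trem2. The name of the group fits the products only in part, since Aif1 encodes a cytosolic protein, Crybb1 a soluble crystallin, and Cd68 mainly a lysosomal membrane protein.

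The promoters of 3 members are shown because their signals make up the patterns described further on: Olfml3 is the member whose arrays did not overlap between the groups, and Cd68 and Crybb1 shared a low value on the same Dap12-deficient array. Each sequence is the 250 bases before the RefSeq transcription start on GRCm38.p6, read 5′ to 3′ along the gene. Capitals mark GAGGAA, a core of the site of the myeloid factor PU.1, TGCTGA, which occurs in sites of Maf factors, and TATAAA, the TATA box, each searched on both strands. The motifs were chosen after the data were seen. The windows lie at chr3:103738002-103738251 on the minus strand for Olfml3, chr11:69666171-69666420 on the minus strand for Cd68 and chr5:112255570-112255819 on the plus strand for Crybb1.
Olfml3: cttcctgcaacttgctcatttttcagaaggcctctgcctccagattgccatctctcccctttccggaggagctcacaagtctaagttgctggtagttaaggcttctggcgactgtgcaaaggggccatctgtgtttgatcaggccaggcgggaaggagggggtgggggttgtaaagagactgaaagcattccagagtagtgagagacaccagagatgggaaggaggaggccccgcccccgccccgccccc
Cd68: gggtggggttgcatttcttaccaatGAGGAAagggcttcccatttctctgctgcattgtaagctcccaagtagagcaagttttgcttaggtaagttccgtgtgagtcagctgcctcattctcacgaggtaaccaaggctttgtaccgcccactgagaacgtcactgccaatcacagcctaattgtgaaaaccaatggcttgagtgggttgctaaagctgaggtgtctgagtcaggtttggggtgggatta
Crybb1: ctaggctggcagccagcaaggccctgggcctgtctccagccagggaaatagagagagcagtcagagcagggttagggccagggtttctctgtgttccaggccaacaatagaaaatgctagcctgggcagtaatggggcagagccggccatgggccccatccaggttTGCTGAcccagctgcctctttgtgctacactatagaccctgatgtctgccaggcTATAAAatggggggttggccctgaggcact
The Cd68 window held 1 GAGGAA, which begins 225 bases before the start. The Crybb1 window held TGCTGA at 84 and TATAAA at 30 bases before the start, and no match was found in the Olfml3 window. Windows were listed for 8 of the 10 genes, in 9 windows, and GAGGAA, read on either strand, was in those of 4 genes, Aif1, Cd68, Fcrls and Ptprc. Of all 32851 promoter windows of this length, 23.3% held GAGGAA, 16.1% TGCTGA and 12.4% TATAAA on either strand. A match is a description of letters and says nothing about binding in these cultures.

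The labels were checked on Tyrobp, the gene of Dap12, which had signals of 125, 96.4 and 96.2 in Dap12-deficient cultures, against 5584, 7271 and 5396 in wild-type cultures. It fell by 5.64 on the log2 scale (SE 0.20, limma adjusted p = 8.14e-07). Median signals of all probe sets lay between 14.6 and 16.5 on Dap12-deficient arrays and between 11.9 and 14.0 on wild-type arrays. Sex-linked transcripts separated the groups as well. Eif2s3y, a Y-linked translation factor gene, had 64.5, 141 and 176 in Dap12-deficient cultures, against 611, 571 and 649 in wild-type cultures. Xist, the RNA that silences an X chromosome in females, had 2514, 2483 and 1228 in Dap12-deficient cultures, against 251, 277 and 1164 in wild-type cultures. Genotype and the sex of the animals behind the cultures therefore cannot be told apart for the values that follow.

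Log2 differences below are Dap12-deficient minus wild-type on log2(signal + 16), a scale that understates differences of dim genes. A Benjamini-Hochberg adjusted p under 0.05 over all 27022 probe sets tested with limma was the threshold. Of the 10 genes, 0 passed it, beside 2 of 27022 probe sets (0.0074%) in the whole table. At an unadjusted p under 0.05, 1 member gene was lower (Olfml3), beside 4.87% of 12875 genes. Each of the 10 genes, taken by its brightest probe set, had a lower mean in Dap12-deficient cultures, beside 54.8% of 12875 genes, with differences between -0.45 and -0.0023. The median difference was -0.25, beside -0.03 over all genes tested. The lower signal was carried by Dap12-deficient arrays 1 and 3 and set against a high wild-type array 2, whereas Dap12-deficient array 2 lay among the wild-type arrays for most members. In total RNA of a culture, fewer microglia and less of a transcript per microglial cell cannot be told apart.

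**Figure D1:**
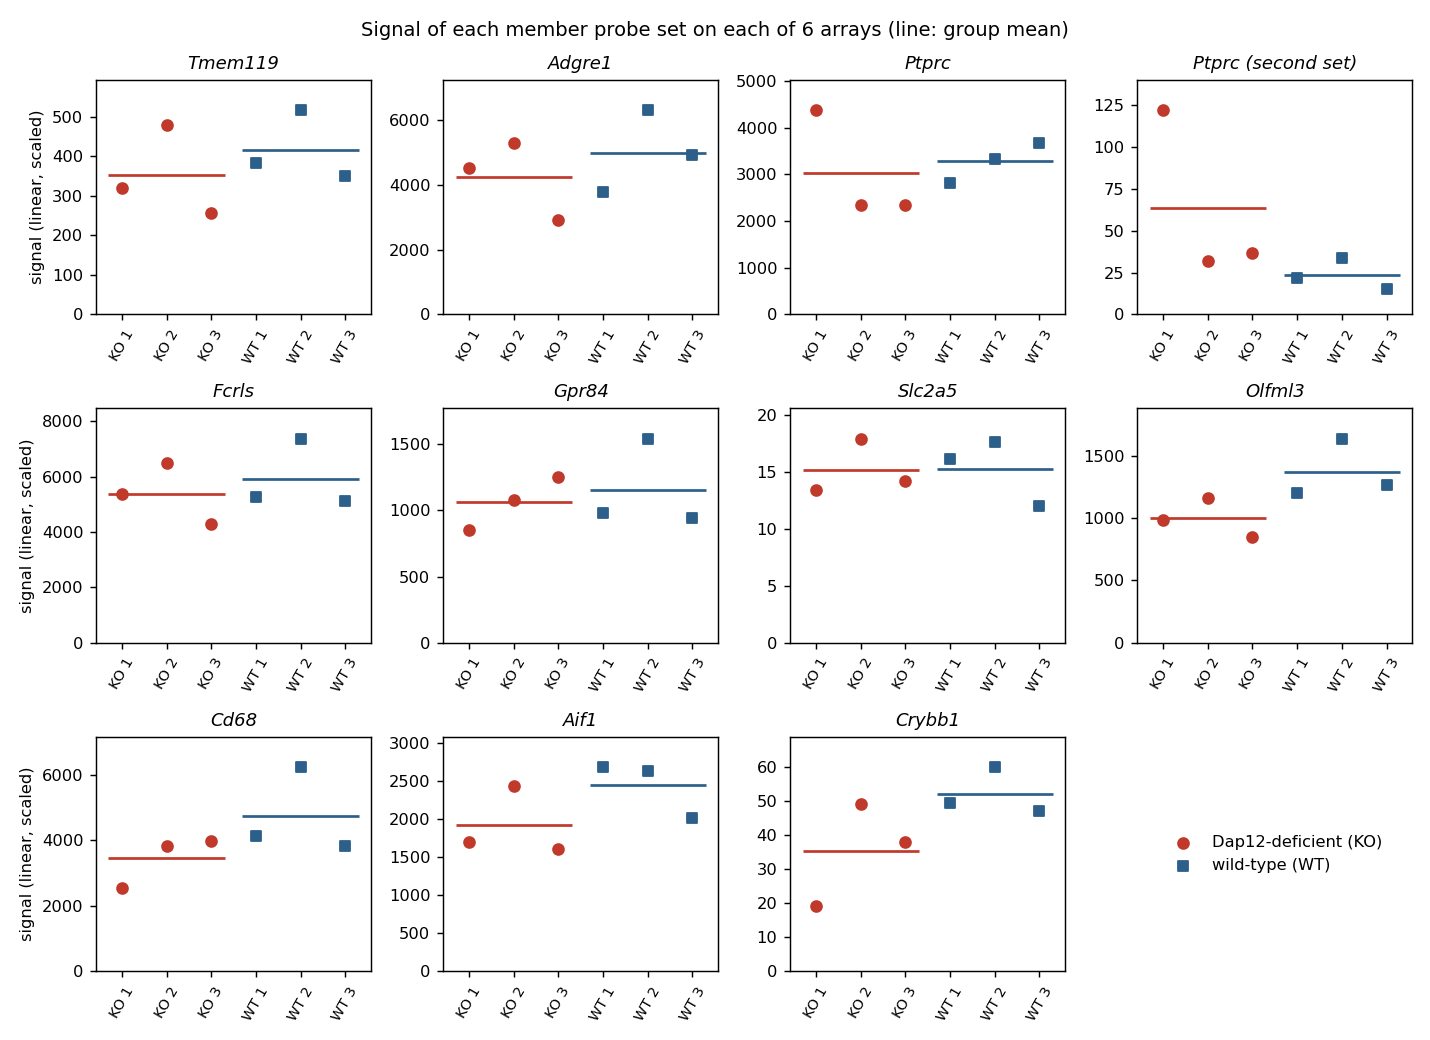
Each panel shows the linear, scaled signal of 1 probe set (y axis, from 0) on 3 Dap12-deficient (KO) and 3 wild-type (WT) arrays, with a line at each group's mean. Dap12-deficient and wild-type points overlap in all panels except that of Olfml3, where the highest Dap12-deficient value is 1160 and the lowest wild-type value 1203.

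Among the membrane proteins, Tmem119, a type I membrane protein used as a microglial marker in brain, had signals of 321, 478 and 257 on Dap12-deficient arrays 1, 2 and 3, against 382, 516 and 349 on wild-type arrays 1, 2 and 3. Arrays 1 and 3 of the Dap12-deficient group were below every wild-type array, but array 2 was higher than wild-type arrays 1 and 3. The group means were 352 ± 113 in Dap12-deficient and 416 ± 88.4 in wild-type cultures (SD, n = 3 each). The log2 difference was -0.26 (SE 0.25, 95% interval -0.82 to 0.31, limma adjusted p = 0.744).

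Adgre1, which encodes the macrophage adhesion receptor F4/80, had 4510, 5298 and 2908 in Dap12-deficient cultures, against 3765, 6299 and 4922 in wild-type cultures. Dap12-deficient array 3 alone was below all wild-type arrays. The log2 difference was -0.25 (SE 0.26, 95% interval -0.81 to 0.32, limma adjusted p = 0.754). Fcrls, an Fc receptor-like scavenger receptor of mouse microglia, had 5361, 6489 and 4280 in Dap12-deficient cultures, against 5271, 7360 and 5133 in wild-type cultures. Again array 3 was the only Dap12-deficient array below the wild-type range, and array 1 lay within it. The difference was -0.14 (SE 0.21, 95% interval -0.60 to 0.32, limma adjusted p = 0.840).

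Ptprc, which encodes the leukocyte phosphatase CD45, gave a different picture on each of its probe sets. The brighter one had 4369, 2346 and 2344 in Dap12-deficient cultures, against 2817, 3331 and 3678 in wild-type cultures. Dap12-deficient array 1 was the highest of the 6 arrays, and arrays 2 and 3 were below all wild-type arrays. This gave a difference of -0.17 (SE 0.25, 95% interval -0.73 to 0.38, limma adjusted p = 0.832) and an SD of 1169 in the Dap12-deficient group, against 433 in the wild-type group. The dimmer one had 122, 32.2 and 36.5 in Dap12-deficient cultures, against 21.5, 33.9 and 15.1 in wild-type cultures. Array 1 was again highest here, and the difference was 0.86 (SE 0.37, 95% interval 0.05 to 1.68, limma adjusted p = 0.451), opposite in sign to that of the brighter probe set. The position of either set of probes along the transcript was not analysed here.

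Gpr84, a G protein-coupled receptor for medium-chain fatty acids, had 853, 1079 and 1248 in Dap12-deficient cultures, against 980, 1540 and 946 in wild-type cultures. Dap12-deficient array 3 was the highest of its group and above the wild-type mean of 1155, and array 1 was the lowest of the 6. The difference was -0.10 (SE 0.24, 95% interval -0.63 to 0.42, limma adjusted p = 0.902). Slc2a5, the fructose transporter GLUT5, had 13.4, 17.9 and 14.2 in Dap12-deficient cultures, against 16.1, 17.6 and 11.98 in wild-type cultures. These signals sat between the 45.3rd and 54.6th percentile of their arrays, close to the median probe set, and detection calls were not used here. Its difference was -0.0023 (SE 0.18, 95% interval -0.40 to 0.40, limma adjusted p = 0.997), and its standard error was 0.35 with a pseudocount of 1, so how large a change the interval leaves depends on this scale.

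Olfml3, which encodes a secreted olfactomedin-like glycoprotein, was the member with the clearest separation. It had 983, 1160 and 847 in Dap12-deficient cultures, against 1203, 1635 and 1262 in wild-type cultures. All 3 Dap12-deficient arrays were below all 3 wild-type arrays, as they were for 8.85% of 12875 genes. The margin was narrow, between 1160 on Dap12-deficient array 2 and 1203 on wild-type array 1. Means were 997 ± 157 in Dap12-deficient and 1367 ± 234 in wild-type cultures (SD, n = 3 each), a ratio of 0.729. The log2 difference of -0.45 (SE 0.20, 95% interval -0.89 to -0.0018) had an unadjusted p of 0.0492 and a limma adjusted p of 0.468, and so did not pass.

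Cd68, a lysosomal sialomucin of phagocytes, had 2545, 3842 and 3986 in Dap12-deficient cultures, against 4141, 6232 and 3828 in wild-type cultures. Array 1 was the lowest of the 6, and arrays 2 and 3 lay just above wild-type array 3. The difference was -0.45 (SE 0.24, 95% interval -0.97 to 0.08, limma adjusted p = 0.540).

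Of the intracellular products, Aif1, the calcium-binding and actin-bundling protein IBA1 that stains microglia and macrophages, had 1705, 2434 and 1611 in Dap12-deficient cultures, against 2681, 2633 and 2013 in wild-type cultures. Arrays 1 and 3 of the Dap12-deficient group were below every wild-type array and array 2 was not. The difference was -0.36 (SE 0.21, 95% interval -0.83 to 0.11, limma adjusted p = 0.575). By the array maker's naming, the ending _s_at of its probe set marks probes that can bind several transcripts. Crybb1, a beta-crystallin known from the lens and listed among microglial genes in mice, had 19.2, 48.9 and 37.9 in Dap12-deficient cultures, against 49.4, 59.8 and 47.0 in wild-type cultures. Array 1 was far below the others, array 3 was below all wild-type arrays and array 2 was between wild-type arrays 3 and 1. The difference was -0.45 (SE 0.24, 95% interval -0.98 to 0.09, limma adjusted p = 0.544) and, because the gene is dim, -0.64 with a pseudocount of 1.

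**Figure D2:**
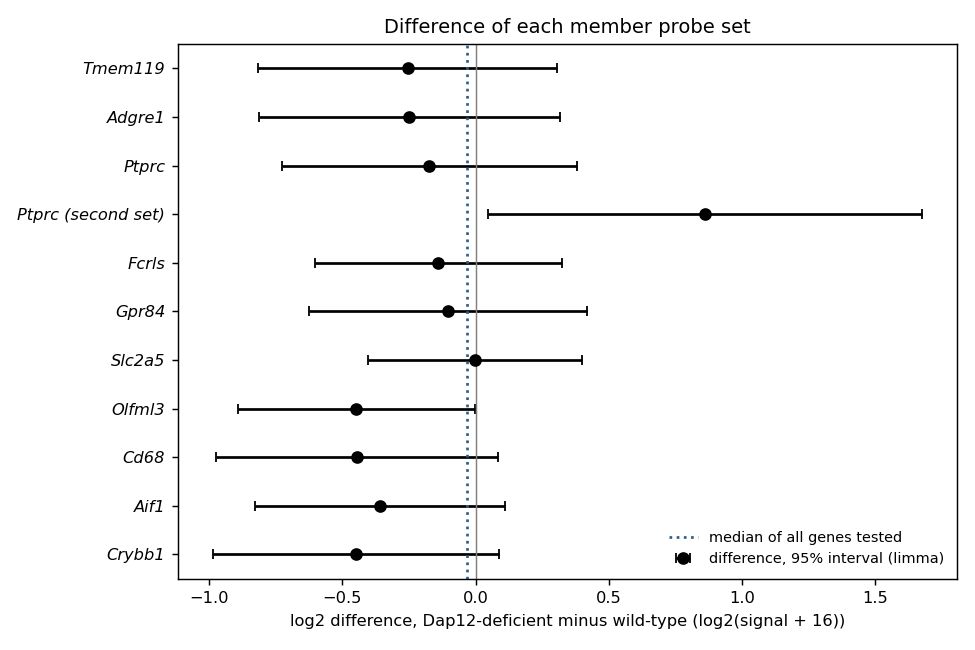
Log2 differences (x axis, Dap12-deficient minus wild-type) of the 11 probe sets are drawn with 95% limma intervals, and a dotted line marks the median of all genes tested (-0.03). The interval of Olfml3 ends just below 0, at -0.0018, that of the second Ptprc probe set lies above 0, and the other 9 intervals include 0.

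The members did not share a single low array. Counted over the 10 genes by their brightest probe set, Dap12-deficient array 3 was the lowest of the 6 arrays for 6 genes (Tmem119, Olfml3, Fcrls, Aif1, Adgre1 and Ptprc), beside 20.7% of all genes tested. Array 1 was lowest for Gpr84, Cd68 and Crybb1, beside 26% of all genes, and wild-type array 3 was lowest for Slc2a5, beside 15.3%. Dap12-deficient array 2 was lowest for 0 of the 10, beside 12.5%. Array 1 was below all 3 wild-type arrays for 6 genes, array 2 for 2 (Olfml3 and Ptprc) and array 3 for 7, beside 36.4%, 27.2% and 32.6% of all genes. Wild-type array 2 was the highest of the 6 for 7 genes, beside 19.8% of all genes.

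As deviations from the wild-type mean on the log2 scale, the median over the 10 genes was -0.37, -0.03 and -0.46 on Dap12-deficient arrays 1, 2 and 3, against -0.15, 0.29 and -0.17 on wild-type arrays 1, 2 and 3. Single genes ranged between -0.95 (Crybb1) and 0.42 (Ptprc) on array 1, between -0.47 and 0.21 on array 2, and between -0.75 (Adgre1) and 0.15 (Gpr84) on array 3. The log2 SD among Dap12-deficient arrays was 0.52 for Ptprc, 0.45 for Crybb1, 0.45 for Adgre1 and 0.43 for Tmem119, against 0.19, 0.14, 0.37 and 0.28 among wild-type arrays. It was 0.32 against 0.23 for Aif1 and 0.30 against 0.29 for Fcrls. For Gpr84, Cd68, Olfml3 and Slc2a5 it was smaller among Dap12-deficient arrays, at 0.27, 0.36, 0.22 and 0.11 against 0.39, 0.38, 0.24 and 0.14. The SD among Dap12-deficient arrays was larger than the size of the difference between the groups for all members except Olfml3, Aif1 and Cd68.

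**Figure D3:**
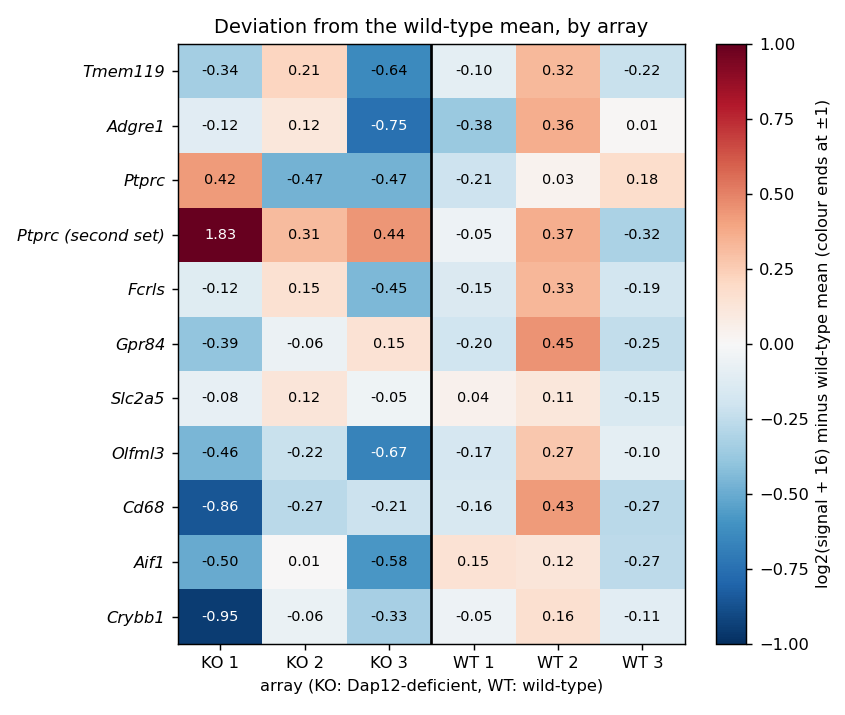
Rows are the 11 probe sets, columns the 6 arrays, and each cell gives log2(signal + 16) minus the wild-type mean of that probe set. The lowest cells of Dap12-deficient array 3 are those of Tmem119, Adgre1, Olfml3 and Aif1, those of array 1 are Cd68 and Crybb1, and wild-type array 2 is above 0 throughout.

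The high wild-type array 2 and the low Dap12-deficient array 3 are the arrays whose titles carry 1 number, and the values were therefore also taken within each kind of title. Between these 2 arrays, which allow no test, all 10 members were lower in the Dap12-deficient culture, with differences from -1.11 (Adgre1) to -0.16 (Slc2a5) and a median of -0.67, beside -0.05 over all genes. Among the 4 arrays with 2 numbers in the title, 6 members were lower and the median was -0.01, beside -0.03 over all genes. There Adgre1 was at 0.18 (SE 0.19), Fcrls at 0.18 (SE 0.16) and Tmem119 at 0.10 (SE 0.27), all higher in Dap12-deficient cultures, whereas Crybb1 was at -0.43, Cd68 at -0.35, Olfml3 at -0.20 and Aif1 at -0.19. Of the 10 members 0 passed in limma in that subset, and the smallest adjusted p was 0.680. A term for the kind of title in the fit on all 6 arrays cannot change the differences, because each group holds both kinds in the same proportion. The median of -0.25 and the 10 of 10 members lower were thus fixed in advance. Only the standard errors could change, and the smallest limma adjusted p was 0.518 (Cd68).

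The median also moved when single arrays were left out. It was -0.46 without Dap12-deficient array 2, -0.15 without Dap12-deficient array 3 and -0.13 without wild-type array 2, against -0.25 with all arrays. It moved less without the others, to -0.23 without Dap12-deficient array 1, -0.30 without wild-type array 1 and -0.31 without wild-type array 3. Olfml3, Aif1, Cd68, Crybb1, Tmem119 and Ptprc (brightest probe set) stayed lower in the Dap12-deficient cultures without any 1 of the 6 arrays. Adgre1 was at 0.00024 without Dap12-deficient array 3. Fcrls was at 0.01 without Dap12-deficient array 3 and at 0.03 without wild-type array 2. Gpr84 was at 0.04 without Dap12-deficient array 1 and at 0.12 without wild-type array 2.

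**Figure D4:**
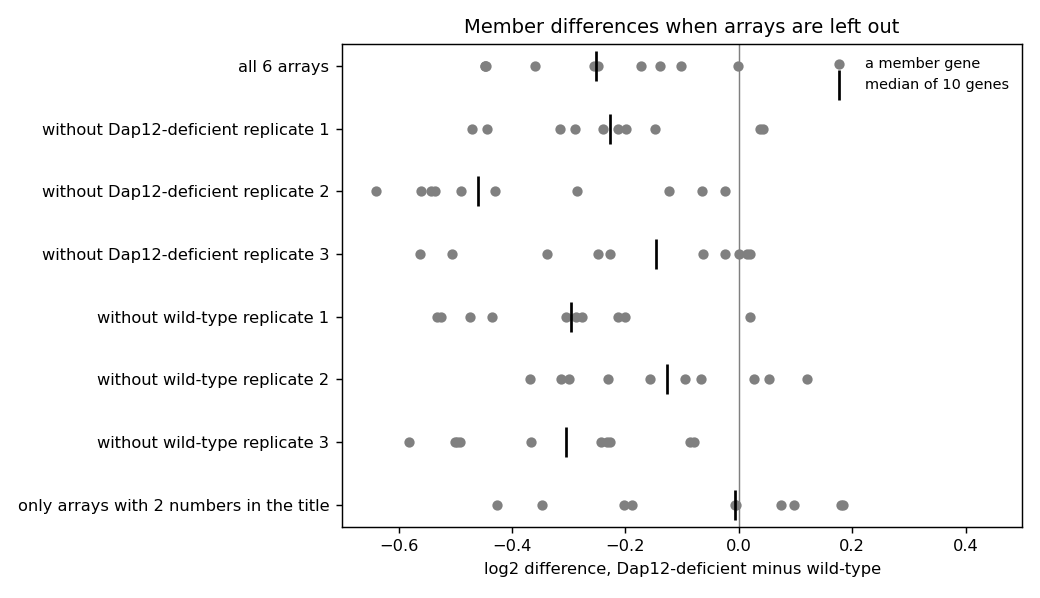
Grey points are the log2 differences (x axis) of the 10 member genes with all arrays, without each array in turn, and with only the 4 arrays whose titles carry 2 numbers, and a black bar marks their median. The bar moves between -0.46 without Dap12-deficient replicate 2 and -0.01 in the 4-array subset.

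With a term for sex-linked genes in the model, 6 of the 10 genes were lower and 4 higher. Cd68 was then at 0.69 (SE 0.60), Crybb1 at 0.64 (SE 0.63) and Gpr84 at 0.87 (SE 0.62), and Ptprc at -1.42. Without the term the standard error of each of Cd68, Crybb1 and Gpr84 was 0.24. The term was the mean log2 signal of the measured Y-linked genes, without Xist. It was 5.31, 5.85 and 6.19 on Dap12-deficient arrays 1, 2 and 3, against 7.10, 7.35 and 7.36 on wild-type arrays 1, 2 and 3. The term follows genotype so closely that the fit cannot tell them apart, and no conclusion is drawn from the signs under it.

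The likeness of array profiles was measured as the root-mean-square difference of log2 values, each centred on its mean over the 6 arrays. Tmem119 and Fcrls were each other's nearest member at 0.11, and Cd68 and Crybb1 were each other's nearest at 0.17. Ptprc was apart from the rest, with Adgre1 as its nearest member at 0.38 and Crybb1 farthest at 0.59. Among 12874 other genes, the nearest to Aif1 was the chemokine gene Ccl8 at 0.030, and Axl, a receptor tyrosine kinase that takes part in the clearing of dying cells, was the second nearest to Adgre1 at 0.055. The actin-sequestering thymosin gene Tmsb4x was the second nearest to Fcrls at 0.054, and Gna12, a G protein alpha subunit gene, the nearest to Tmem119 at 0.052. Lrch1 was nearest to Olfml3 at 0.052 and Twf2, an actin-binding twinfilin gene, nearest to Crybb1 at 0.051. The nearest to Adgre1 was Pfkfb4 at 0.047 and the nearest to Fcrls was Gnb5 at 0.053. For Slc2a5 it was Ddx56 at 0.030, for Gpr84 Sh2b1 at 0.056, for Cd68 Nudt14 at 0.083 and for Ptprc Kctd20 at 0.071. With 6 arrays and this many genes, close profiles are found for any gene, and the distances are descriptions.

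By their median, other genes of microglia identity were lower on the same arrays as the members. Of 28 measured genes 24 were lower, beside 54.8% of all genes tested, and 4 higher. In limma 0 passed, and the median difference was -0.29, beside -0.25 for the 10 members. Not every gene followed this pattern. The largest increases were those of Cx3cr1 (0.72, SE 0.56) and Lgmn (0.70, SE 0.49). Cx3cr1 had 1571, 276 and 499 in Dap12-deficient cultures, against 357, 664 and 197 in wild-type cultures. Their median deviation was -0.39, -0.09 and -0.38 on Dap12-deficient arrays 1, 2 and 3, against -0.04, 0.21 and -0.20 on wild-type arrays 1, 2 and 3, so that Dap12-deficient array 2 was again nearest to wild-type and wild-type array 2 again highest. The genes with the smallest p were Slco2b1, an organic anion transporter gene, with a log2 difference of -0.76, the receptor gene Gpr34 with -0.71, Abi3, a regulator of actin, with -0.75, the transcription factor gene Sall1 with -0.42, the ectonucleotidase gene Entpd1 with 0.44 and the Dap12 partner Trem2 with -0.48. Slco2b1, Gpr34 and Sall1 had non-overlapping arrays, all lower as for 8.85% of all genes, and Entpd1 had non-overlapping arrays, all higher, as for 7.54%. Among arrays with 2 numbers in the title the median of these 28 genes was -0.20, and between the 2 arrays with 1 number it was -0.60.

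Genes of the disease-associated programme, which microglia take up near amyloid and dying cells, were lower for 17 of 18 measured genes, beside 54.8% of all genes tested. Their median was -0.22 and 0 were past the threshold. Ch25h, a cholesterol hydroxylase gene, had a difference of -1.14 and the cystatin gene Cst7 -1.28. Neither overlapped between the groups, all lower as for 8.85% of all genes. Of 17 tested genes of inflammatory activation 14 were higher and 3 lower, beside 54.8% of all genes tested that were lower. Their median was 0.47, and again 0 were past the threshold. For 10 of the 17 the arrays did not overlap, all higher as for 7.54% of all genes. For 1 they did not overlap with all lower, as for 8.85%. The neutrophil chemokine gene Cxcl2 was at 1.77 and the costimulatory gene Cd80 at 1.12. The median deviation of the inflammatory list was 0.38, 0.35 and 0.66 on Dap12-deficient arrays, against 0.10, -0.01 and -0.05 on wild-type arrays, so that Dap12-deficient array 2 was apart from wild-type here although its median lay within the wild-type range for the members.

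Markers of other cell types moved with the same arrays in part. Summed signals of 11 oligodendrocyte markers were 8731, 4268 and 3789 in Dap12-deficient cultures, against 10896, 7535 and 10793 in wild-type cultures, with 9 of 11 genes lower. The proteoglycan gene Cspg4 was at -1.51 (SE 0.18, limma adjusted p = 0.0613) and the myelin gene Mog at -1.88. Another myelin gene, Mbp, had 4714, 1142 and 358 in Dap12-deficient cultures, against 5535, 3839 and 5283 in wild-type cultures. Of 13 astrocyte markers tested 10 were higher and 3 lower, with a median difference of 0.32. The glutamate transporter genes Slc1a2 and Slc1a3 had the smallest p and were at 0.58 and 0.63. The largest difference of the list was that of S100b, which was lower, at -1.04. Summed signals of 14 astrocyte markers were 2547, 2697 and 3427 in Dap12-deficient cultures, against 3289, 2099 and 3070 in wild-type cultures. Most of each sum was the signal of Glul, between 1448 and 2233 on the 6 arrays, with a log2 difference of -0.11. The astrocyte filament gene Gfap had 96.7, 15.3 and 237 in Dap12-deficient cultures, against 74.7, 28.5 and 53.2 in wild-type cultures, so that Dap12-deficient array 3, lowest for 6 members, had the highest value of Gfap, and wild-type array 2, highest for 7 members, the lowest wild-type value. The part of other cells in the members' values was not tested.

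In each of the remaining lists 0 genes passed the threshold in limma, and the 2 genes with the smallest p are given. Of 9 border macrophage markers tested 6 were lower and 3 higher, with a median difference of -0.18. The lectin gene Cd209f was at -0.86 and the folate receptor gene Folr2 at -0.78. Both had non-overlapping arrays, all lower as for 8.85% of all genes. Mrc1, the mannose receptor, was instead higher, at 1743 to 2034 in Dap12-deficient and 1422 to 1631 in wild-type cultures. Cbr2, a dim gene, was higher too, with a log2 difference of 0.68. For Mrc1 and Cbr2 the arrays did not overlap, all higher as for 7.54% of all genes. The list summed to between 7139 and 7438 in Dap12-deficient and between 7367 and 8641 in wild-type cultures. Neuron markers had a median of -0.27, with Tubb3, a neuronal tubulin gene, at -0.64 and the GABA-synthesising enzyme gene Gad1 at -0.62, and they summed to between 434 and 542 in Dap12-deficient and between 526 and 665 in wild-type cultures. Markers of fibroblasts and meninges had a median difference of 0.22, with the matrix protein gene Postn at -1.03 and Islr at 0.69, and they summed to between 235 and 364 in Dap12-deficient and between 230 and 385 in wild-type cultures. Of 8 lymphocyte and 8 monocyte and granulocyte markers on the array, 7 of each were dimmer than the median probe set, as were 5 of 8 endothelial markers, among them Cd3e, S100a8 and Cldn5. The brighter exception among lymphocyte markers was Ighm, the heavy chain gene of IgM, with 48.9, 72.8 and 79.2 in Dap12-deficient cultures, against 214, 207 and 154 in wild-type cultures. Its difference was -1.33, and that of the B cell gene Cd79b -0.037. The granulocyte genes Mpo and S100a8 were at 0.31 and 0.27, and the endothelial genes Flt1 and Vwf at -0.77 and 0.86.

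Cell cycle genes were lower for 14 of 14 measured genes, beside 54.8% of all genes tested, with a median of -0.40. For 5 of the 14 the arrays did not overlap, all lower as for 8.85% of all genes. Cenpa, the centromere histone gene, was at -0.69 and Birc5, of the chromosomal passenger complex, at -0.58. Their summed signals were 2333, 2499 and 3231 in Dap12-deficient cultures, against 3728, 3599 and 4000 in wild-type cultures, and did not overlap. Median deviations were -0.55, -0.49 and -0.14 on Dap12-deficient arrays 1, 2 and 3. That order, with array 3 nearest to wild-type, differed from that of the members.

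**Figure D5:**
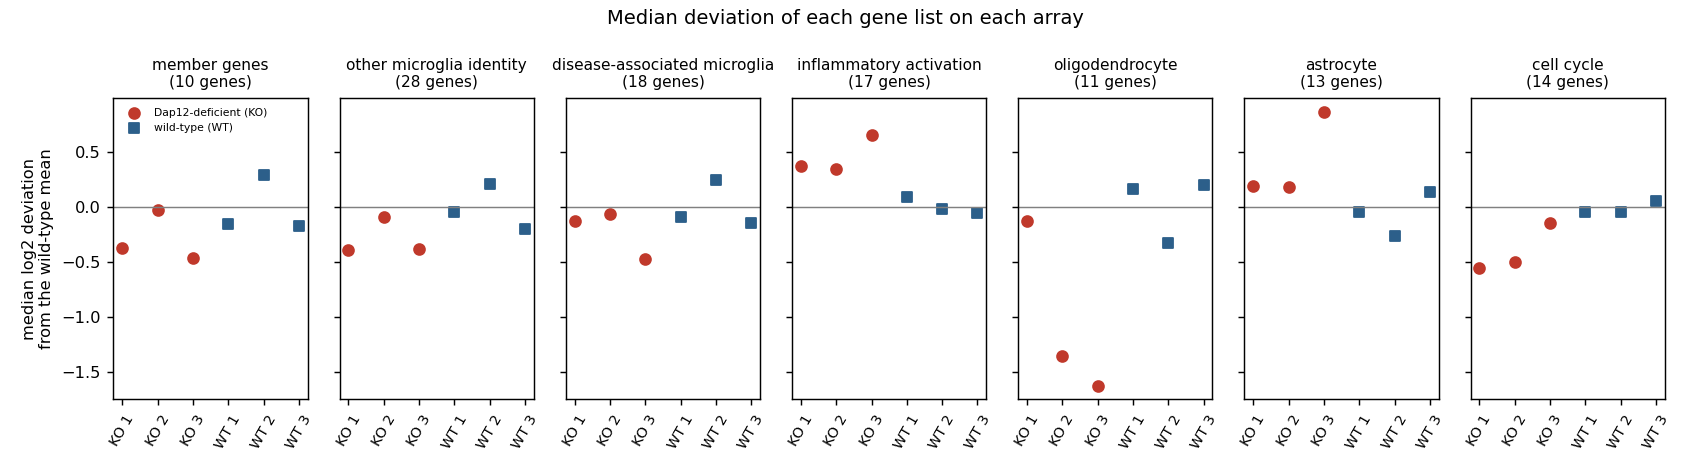
Each panel gives the median log2 deviation from the wild-type mean (y axis) over the genes of 1 list on 3 Dap12-deficient (KO) and 3 wild-type (WT) arrays. The 10 members and the 28 other microglia identity genes show low values on Dap12-deficient arrays 1 and 3 and a high value on wild-type array 2, while oligodendrocyte markers are lowest on Dap12-deficient arrays 2 and 3.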

How the data were processed

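Trizol and RNeasy were used to extract total RNA, and biotin was added with the array maker's kit, which amplifies RNA in repeated cycles, per the labels' protocols. The deposited values are linear intensity values per probe set, made with GCOS per the submitters' processing notes, and the version and algorithm used are not stated there. The mean after leaving out 2% of probe sets at each end was 100.0 on every array, so arrays had been scaled to 1 target. Values were used as deposited.

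Of 45101 probe sets, 64 controls were left out. Genes were named where the platform annotation gave 1 symbol (34945 probe sets, with several symbols for 932 and none for 9160), and older symbols were updated by gene ID through a RefSeq table of GRCm38.p6. Probe sets whose mean reached the 40th percentile (8.51) were tested, a filter that all 11 probe sets of the members passed. limma 3.58.1 in R 4.3.3 was fitted on log2(signal + 16) with lmFit and eBayes with a trend, two-sided, without covariates. For counts over genes the brightest tested probe set was taken. Replicates were numbered in order of deposit, and arrays shared a value in 0 probe sets. The fit was run on simulated data with changes larger than those of the members and independent noise per probe set. That run says nothing about differences of the members' size, and no result here rests on it. The number of arrays limits the precision, and no depth applies.

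The members, gene lists, tests and alternatives were chosen with earlier results of these data known, so no list was tested. Named were all members, Tyrobp, defining markers of other cell types, and the sex-linked genes (2 given). The genes of smallest p of each context list were named too (6 for microglia identity, 2 for others). Of the 2 nearest profiles of each member, the nearest is given throughout, and of the second nearest only Axl and Tmsb4x. Cx3cr1, Lgmn, S100b, Cbr2 and Glul were added because they went against the rest of their list or made up most of its sum. Alternatives were other pseudocounts (1 and 64), scalings, filters, variance settings, covariates and array subsets. Promoter sequences come from RefSeq (GRCm38.p6). Plots used matplotlib 3.10.9 in Python 3.11.15.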

Additional observations from a re-analysis of the deposited data

How the results depend on the processing

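Over 18 alternatives, 179 differences of member genes were computed, of which 160 kept their direction and 19 turned. In those with a test, 0 passed the threshold in limma. Part of the 160 could not turn. Other filters, eBayes without a trend and the term for the kind of title leave each difference as it was. Averaging the probe sets of a gene changes only Ptprc. The tally is therefore no measure of how stable the directions are. Olfml3 and Aif1 were lower in Dap12-deficient cultures under all 18, including those that could not change the difference. Scaling to a common median moved the median of all genes to -0.23 and that of the members to -0.50, which left the members at -0.27 relative to all genes, against -0.22 as deposited and -0.16 after quantile normalization. The count of members lower was 6 with the sex-linked term and 6 among arrays with 2 numbers in the title, and between 7 and 10 when 1 array was left out, against 10. Their median was between -0.46 and -0.13 when 1 array was left out. The count of probe sets passing was 5 with a common median, 4 with array weights, 11 with the sex-linked term and 1 among arrays with 2 numbers in the title, against 2. It ranged from 2 to 171 when 1 array was left out, with 171 without Dap12-deficient replicate 2 and 15 without Dap12-deficient replicate 1.

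Directions turned as follows, and the cause was not tested. With the sex-linked term, which closely follows genotype, Slc2a5 was at 0.049, Gpr84 at 0.87, Cd68 at 0.69 and Crybb1 at 0.64. Among arrays with 2 numbers in the title, Tmem119 was at 0.10, Fcrls at 0.18, Slc2a5 at 0.075 and Adgre1 at 0.18. Slc2a5 was at 0.018 with array weights. When 1 array was left out, Slc2a5 lay between -0.079 and 0.053, Gpr84 between -0.23 and 0.12, Fcrls between -0.29 and 0.027 and Adgre1 between -0.44 and 0.00024. The mean of the Ptprc probe sets was 0.34. Slc2a5 was too dim for the filter at the 60th percentile. No paired analysis was possible because the replicate numbers follow the order of deposit and pair nothing. The signal of Slc2a5, near that of the median probe set, limits what these arrays can show for it.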
